A study of Homo sapiens with 6 samples.

Results

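The 10 genes described here encode proteins that coat the lipid droplet, break down or build its fat, bring lipoprotein into the cell or pass fatty acids to the mitochondrion. They are PLIN2, PLIN3, PLIN4, PLIN5, HILPDA, G0S2, PNPLA2, VLDLR, CPT1A and DGAT1, taken by symbol from a table of 60708 human genes, and all 10 were listed in it. RNA was sequenced from Caki-1 cells, an established line from a metastasis of human clear cell renal carcinoma that carries wild-type VHL. The 3 VC samples received a lentiviral CRISPR vector with no VHL guide and have a wild-type genotype, and the 3 VHL-KO samples received the vector with a guide against VHL. VHL-KO cells were selected with puromycin and screened by immunoblot as clones, and neither the number of clones nor the guide behind the sequenced samples is given in the sources used here. Differences between clones and the loss of VHL can therefore not be told apart in these samples. Nothing says that the 3 replicates of a group were separate cultures, so the p-values measure only the spread between these samples, which may be technical. The VC libraries held 31789923, 28463579 and 34881739 counted reads, and the VHL-KO libraries held 29139722, 22805385 and 22628246, so the VHL-KO libraries were the shallower ones on average.

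A lipid droplet is a core of triacylglycerol and sterol esters under a single layer of phospholipid, and the perilipins are the proteins that coat it and limit the access of lipases. Fatty acids reach the core after synthesis or uptake, are joined to glycerol by enzymes that end with the diacylglycerol acyltransferases, leave it through adipose triglyceride lipase, and enter mitochondria as carnitine esters. Clear cell renal carcinoma is named for cytoplasm filled with lipid and glycogen, and VHL, the gene most often lost in it, encodes the part of a ubiquitin ligase that recognises HIF-alpha proteins and leads to their degradation.

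VHL, on chromosome 3 (GRCh38, chr3:10141778-10153667), was read first because it is the targeted gene. Its level in CPM, which are reads of a gene relative to all counted reads of the library scaled by TMM factors, was 42.6, 37.8 and 40.1 in VC 1, 2 and 3, and 34.8, 30.5 and 30.5 in VHL-KO 1, 2 and 3. All 3 VHL-KO samples lay below all 3 VC samples, but VHL mRNA remained at 31.9 ± 2.49 CPM (SD, n = 3). The log2 fold change was -0.33 (SE 0.11, adjusted p = 0.0109 by the quasi-likelihood test of edgeR, Benjamini-Hochberg adjusted over all tested genes). It was -0.53 with library size alone and -0.03 with offsets for GC content and transcript length, and the edgeR adjusted p ranged from 0.000293 to 0.778 over 15 alternatives, 10 of which kept the call. Gene counts do not show whether a coding sequence was cut, so this level does not check the labels.

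Of the 10 genes, 8 reached 10 reads in at least 1 library and were tested, and 6 of those 8 passed an adjusted p of 0.05, 5 higher and 1 lower in VHL-KO cells. Across the table, 10394 of 17401 tested genes passed (59.7%), 28.5% higher and 31.2% lower. The 3 samples of each group did not overlap for 6 of the 8 genes and for 64.7% of all tested genes. A change of at least 2-fold past the threshold was seen for 2 genes that rose (PLIN2 and HILPDA) and 1 that fell (CPT1A), beside 13.9% and 12.3% of all tested genes. The median log2 fold change was 0.48 over the 8 tested genes and -0.01 over all tested genes, and for the 8 genes it was 0.29 with library size alone and 0.32 with GC and length offsets. PLIN5 and VLDLR were tested and did not pass, PLIN4 was too low to test, and G0S2 had no counts. These counts over 8 genes are a description, and nothing is read from them about the list as a whole. Scaling moved the whole table: genes higher in VHL-KO made up 47.7% of the calls under TMM factors, 55.0% under upper quartile factors and 35.8% where library size was the one scaling. The median log2 fold change of all tested genes lay at -0.01, 0.10 and -0.20 in that order. Each library averages a whole culture, so fewer cells that make an mRNA and less of it in each cell cannot be told apart.

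**Figure D1:**
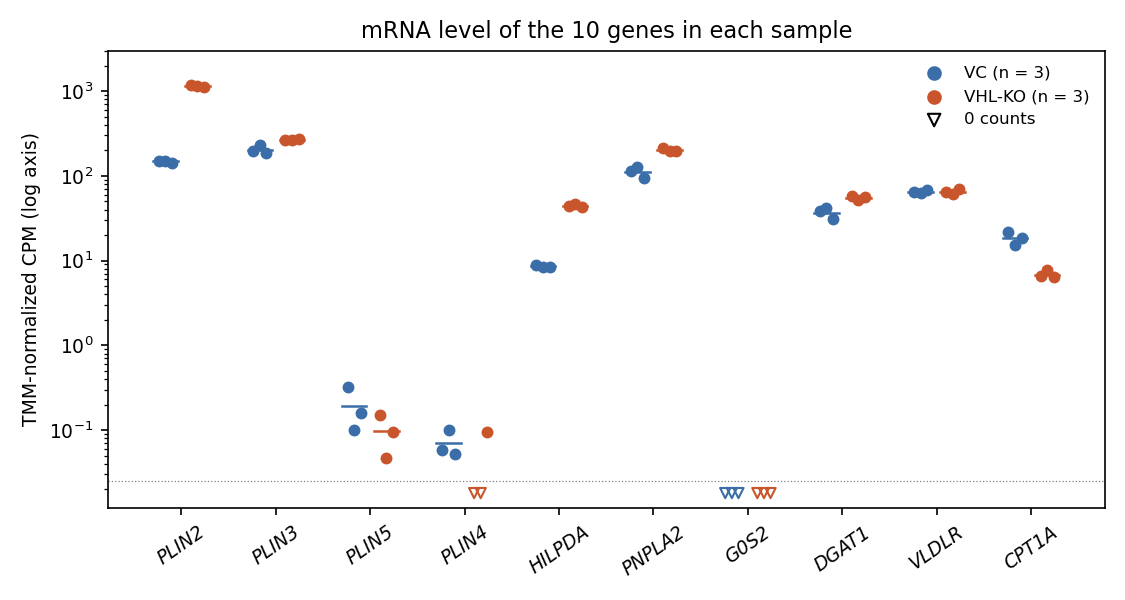
TMM-normalized CPM of the 10 genes (log axis), with 1 point per sample, 3 VC samples in blue and 3 VHL-KO samples in orange; a line marks the group mean where no sample is at 0, and open triangles below the dotted line mark samples with 0 counts. PLIN2 and HILPDA sit far apart between the groups, CPT1A is lower in all 3 VHL-KO samples, VLDLR overlaps, and PLIN4, PLIN5 and G0S2 lie below 1 CPM in every sample.

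PLIN2, the perilipin found on droplets of most cell types (chr9:19108375-19149290, minus strand), changed most among the 10 genes. It had 5141, 4470 and 5415 reads in VC 1, 2 and 3, and 31595, 24859 and 24117 in VHL-KO 1, 2 and 3. These counts correspond to 150.6, 150.4 and 142.6 CPM in VC and to 1183, 1152 and 1131 CPM in VHL-KO. The 3 VHL-KO samples stood close together and several-fold above the 3 VC samples, which were also close together. The mean rose from 147.9 ± 4.54 to 1155 ± 26.0 CPM (SD, n = 3 each), 7.81-fold with a 95% interval of 6.88 to 8.87. The log2 fold change of 2.97 (SE 0.09) had an adjusted p of 1.59e-18 in the same edgeR test, and 334 of the tested genes had a larger log2 rise. Over the 15 alternatives the log2 fold change stayed between 2.77 and 3.08 and passed in all 15. No exon of another annotated gene overlaps those of PLIN2.

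The bases before the start sites of PLIN2 and PLIN3 are printed to set side by side the perilipin that changed most and the one that led in VC cells. RefSeq promoter windows of 300 bases (250 before and 50 after the start, GRCh38.p14) were matched by symbol for 8 of the 10 genes, and each was searched on both strands for ACGTG and GCGTG, the core letters of HIF-binding elements. HILPDA had no entry and DGAT1 was not searched. Positions -250 to -31 are printed on the strand of the gene, from chr9:19127523-19127742 (minus strand) for PLIN2 and chr19:4867698-4867917 (minus strand) for PLIN3, 220 bases each. Capitals mark either motif, read on this strand or, as CACGT and CACGC, on the other.
PLIN2: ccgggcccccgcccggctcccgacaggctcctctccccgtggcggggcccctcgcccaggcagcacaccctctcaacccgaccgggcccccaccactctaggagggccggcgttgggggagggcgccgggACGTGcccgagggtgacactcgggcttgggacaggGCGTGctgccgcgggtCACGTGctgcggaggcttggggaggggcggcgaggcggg
PLIN3: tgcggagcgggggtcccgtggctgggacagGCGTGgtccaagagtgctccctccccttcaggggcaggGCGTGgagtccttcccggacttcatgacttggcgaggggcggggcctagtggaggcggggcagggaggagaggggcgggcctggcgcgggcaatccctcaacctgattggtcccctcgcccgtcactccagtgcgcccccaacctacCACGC

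Neither printed stretch holds an exon annotated in GENCODE, and that of PLIN2 lies in an intron of a longer PLIN2 transcript. The whole PLIN2 window held 3 ACGTG and 2 GCGTG matches, starting at -120, -85, -69, -68 and -3 from the start site, where those at -69 and -68 are the same CACGTG read on either strand. PLIN3 held no ACGTG and 3 GCGTG matches, at -220, -182 and -35. ACGTG occurred in 21.4% of 35116 windows of this length, GCGTG in 36.5% and either in 48.4%. Among the other windows, VLDLR held 5 GCGTG matches, G0S2 held 4, PLIN5 held 2 and CPT1A held 1, and PNPLA2 and PLIN4 held neither motif. PLIN2 was thus the gene with ACGTG in its window among the 8 searched. A match is a run of letters and no measured binding.

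PLIN3, a perilipin that also occurs free in the cytosol and moves to young droplets (chr19:4838341-4867694, minus strand), had 197.7, 231.6 and 184.0 CPM in VC 1, 2 and 3. In VHL-KO 1, 2 and 3 it had 267.7, 265.8 and 270.7 CPM. The VHL-KO samples were nearly level and all above the VC samples, of which VC 2 came closest. The mean went from 204.4 ± 24.5 to 268.1 ± 2.46 CPM (n = 3 each), a log2 fold change of 0.39 (SE 0.09, adjusted p = 0.00084 by the edgeR test). The rise was 0.20 with library size alone, and with GC and length offsets it was 0.09 with an edgeR adjusted p of 0.123, which ends the call (3.25e-07 to 0.123 across the alternatives). An antisense gene covers 18.3% of PLIN3 exon bases. Exons of other annotated genes also cover 23.5% of those of VHL and 10.5% of those of PNPLA2 (antisense), 21.7% of those of PLIN5 (same strand) and 11.1% of those of DGAT1 (both strands). Whether the counting used strand is not given in the sources used here, so the counts of these genes are uncertain to that extent.

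PLIN5, a perilipin of oxidative tissues that links droplets to mitochondria (chr19:4522531-4535224), had 11, 3 and 6 reads in VC 1, 2 and 3, and 4, 1 and 2 in VHL-KO 1, 2 and 3. VC 1 held the highest count and was the library through which the gene entered the test. Summed over each group, this was 0.196 CPM in VC (exact Poisson 95% interval 0.120 to 0.303) and 0.101 CPM in VHL-KO (0.0404 to 0.207). The fitted log2 fold change was -0.94 (SE 0.91, edgeR adjusted p = 0.382), with a 95% interval of -2.82 to 0.93. As a ratio of VHL-KO to VC this interval runs from 0.142 to 1.91. Both a several-fold fall and a rise of nearly 2-fold lie within it. PLIN4, the perilipin of adipocytes and muscle with long runs of near-identical repeats (chr19:4502192-4518486), had 2, 3 and 2 reads in VC and 0, 0 and 2 in VHL-KO and was not tested. Its summed level was 0.0687 CPM (0.0276 to 0.142) in VC and 0.0287 CPM (0.00348 to 0.104) in VHL-KO. The intervals of both genes overlapped between the groups, which is no test of a difference, and such intervals cover counting error only. No difference is read from these low counts.

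Set on a common scale of CPM per kilobase of annotated exon, the perilipin that led differed between the groups. PLIN2 made up 29.4%, 26.2% and 29.7% of the summed level of PLIN2 to PLIN5 in VC 1, 2 and 3, and 70.7%, 70.3% and 69.5% in VHL-KO 1, 2 and 3. PLIN3 led in each VC sample and PLIN2 in each VHL-KO sample, and PLIN4 and PLIN5 together stayed under 0.1% of the sum. The share of PLIN2 went from 28.4% ± 1.95 to 70.2% ± 0.595, a difference of 41.7 percentage points (exact permutation test, two-sided, p = 0.1, the smallest that 3 samples against 3 allow). The summed level went from 104 ± 9.60 to 328 ± 4.77 CPM per kilobase. PLIN2 has 5.01 kb of annotated exons but a canonical transcript of 1.90 kb, and per kilobase of canonical transcript, a scale added after the values were seen, its share was 46.1% ± 2.40 in VC and 83.5% ± 0.392 in VHL-KO. On that scale, too, PLIN3 led in each VC sample, with a smaller margin, and PLIN2 in each VHL-KO sample. A ratio of 2 genes within a library is not moved by a single scaling factor per library. Offsets for GC content and length differ between genes and can move it, and all ratios given here are without them. With these offsets the log2 fold change was 2.99 for PLIN2 and 0.09 for PLIN3. The reads of PLIN2 over those of PLIN3 were 0.762, 0.650 and 0.775 in VC and 4.42, 4.33 and 4.18 in VHL-KO. The ratio was 5.93-fold higher in VHL-KO (exact permutation p = 0.1, 0.125 after Benjamini-Hochberg adjustment over 5 ratios), while that of PLIN5 to PLIN3 had an exact p of 0.2.

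**Figure D2:**
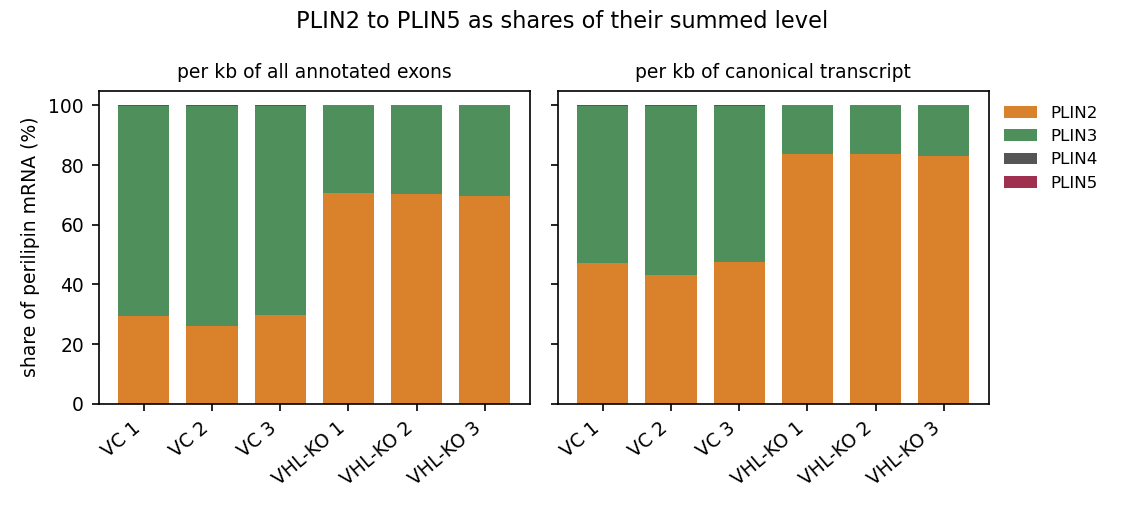
Stacked bars give PLIN2, PLIN3, PLIN4 and PLIN5 as percent of their summed level in each of the 6 samples, scaled per kilobase of all annotated exons (left) or of the canonical transcript (right). PLIN2 (orange) takes 26.2% to 29.7% of the left bars in VC and 69.5% to 70.7% in VHL-KO, and PLIN4 and PLIN5 are too small to see.

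PNPLA2 encodes adipose triglyceride lipase, which takes the first fatty acid from triacylglycerol, and HILPDA and G0S2 encode small proteins that bind and inhibit it. PNPLA2 (chr11:818914-825573, plus strand) had 115.0, 127.4 and 95.4 CPM in VC 1, 2 and 3, and 213.1, 196.1 and 197.0 CPM in VHL-KO 1, 2 and 3. All 3 VHL-KO samples were above all 3 VC samples, which spread more widely. The mean rose from 112.6 ± 16.1 to 202.1 ± 9.53 CPM (n = 3 each), 1.80-fold (95% interval 1.56 to 2.07), with a log2 fold change of 0.84 (SE 0.10, edgeR adjusted p = 1.04e-07). Its transcript has 64.8% GC, and with GC and length offsets the log2 fold change was 0.37 (edgeR adjusted p = 1.03e-05). All 15 alternatives kept the call, with edgeR or DESeq2 adjusted p from 6.66e-17 to 1.03e-05.

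HILPDA, also known as an mRNA that hypoxia raises (chr7:128455849-128458418, plus strand), had 303, 249 and 319 reads in VC 1, 2 and 3, and 1174, 1005 and 910 in VHL-KO 1, 2 and 3. In CPM these were 8.87, 8.38 and 8.40 against 43.9, 46.6 and 42.7. Both groups were tight and far apart. The mean rose from 8.55 ± 0.279 to 44.4 ± 1.99 CPM, 5.19-fold (95% interval 4.37 to 6.16), with a log2 fold change of 2.38 (SE 0.12, edgeR adjusted p = 2.86e-14). It stayed between 2.17 and 2.49 over the alternatives and passed in all 15, and 624 tested genes had a larger log2 rise. Other annotated genes share 13.2% of its exon bases. The reads of HILPDA over those of PNPLA2 were 0.0772, 0.0658 and 0.0881 in VC and 0.206, 0.237 and 0.217 in VHL-KO, so the mRNA of the inhibitor was higher relative to that of its target in each VHL-KO library. This ratio was 2.87-fold higher in VHL-KO (exact permutation p = 0.1, adjusted 0.125).

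G0S2, the second inhibitor (chr1:209675412-209676390, plus strand), had 0 reads in all 6 libraries, and no other annotated exon overlaps it. A count of 0 leaves room for 3 counts, which over a group is 0.0295 CPM in VC and 0.0431 CPM in VHL-KO, and in single libraries comes to between 0.0527% and 0.0829% of the PNPLA2 reads. With both groups at 0, neither a fold change nor the planned ratio to PNPLA2 could be given. HILPDA was therefore the inhibitor of this lipase with counted mRNA, of the 2 examined.

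DGAT1, which joins the last fatty acid to diacylglycerol, had 38.1, 41.6 and 30.7 CPM in VC 1, 2 and 3, and 57.4, 51.3 and 55.9 CPM in VHL-KO 1, 2 and 3. The groups did not overlap, and the nearest pair was VC 2 and VHL-KO 2. The mean rose from 36.8 ± 5.60 to 54.9 ± 3.20 CPM (n = 3 each), 1.49-fold (95% interval 1.27 to 1.76), with a log2 fold change of 0.58 (SE 0.11, edgeR adjusted p = 0.000111). Its transcript has 63.2% GC, and with GC and length offsets the log2 fold change was 0.26 (edgeR adjusted p = 0.00458, between 3.97e-07 and 0.00506 across the alternatives, all past the threshold).

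CPT1A, the carnitine palmitoyltransferase of the outer mitochondrial membrane that controls entry of long-chain fatty acids into oxidation (chr11:68754620-68844410, minus strand), was the gene of the 10 that fell. It had 21.97, 15.35 and 18.41 CPM in VC 1, 2 and 3, and 6.51, 7.69 and 6.33 CPM in VHL-KO 1, 2 and 3. VC 2 was the lowest VC sample and still stood well above every VHL-KO sample. The mean went from 18.6 ± 3.31 to 6.85 ± 0.739 CPM, 2.72-fold lower in VHL-KO, with a log2 fold change of -1.44 (SE 0.16, edgeR adjusted p = 2.56e-08). Over the alternatives it lay between -1.64 and -1.29 and passed in all 15, and 1196 tested genes had a larger log2 fall. The reads of CPT1A over those of DGAT1 were 0.577, 0.369 and 0.601 in VC and 0.1135, 0.1501 and 0.1133 in VHL-KO, 4.05-fold lower (exact permutation p = 0.1, adjusted 0.125).

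VLDLR, a receptor that takes up triacylglycerol-rich lipoprotein (chr9:2621182-2660056, plus strand), had 65.1, 62.1 and 67.3 CPM in VC 1, 2 and 3, and 64.4, 60.8 and 70.7 CPM in VHL-KO 1, 2 and 3. The groups overlapped, and VHL-KO 3 was the highest and VHL-KO 2 the lowest of the 6 samples. The means were 64.8 ± 2.65 and 65.3 ± 5.0 CPM, with a log2 fold change of 0.01 (SE 0.10, edgeR adjusted p = 0.937) and a 95% interval of -0.19 to 0.21 under TMM factors. The sign depended on the scaling, with -0.18 under library size alone, and with GC and length offsets the value was 0.39 (edgeR adjusted p = 4.09e-05, within a range of 1.95e-05 to 0.977), which is past the threshold. Whether the trend with GC content and length between these libraries is technical was not tested, so for VLDLR, PLIN3, PNPLA2 and DGAT1 neither value is preferred here. The VLDLR transcript has 42.8% GC, the lowest of the 8 tested genes. Antisense genes overlap part of its exons (8.24%), among them VLDLR-AS1 with 24 to 83 reads per library and a log2 fold change of -0.22 (edgeR adjusted p = 0.507).

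**Figure D3:**
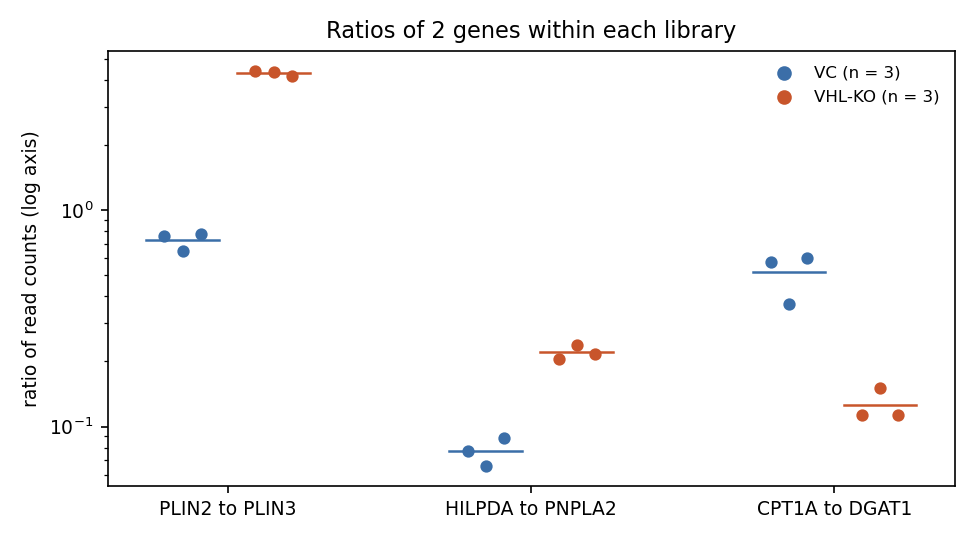
Ratios of read counts within each library (log axis), with 1 point per sample and a line at the group mean, 3 VC samples in blue and 3 VHL-KO samples in orange. The groups do not overlap for any of the 3 ratios drawn, and CPT1A to DGAT1 is the one that is lower in VHL-KO.

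Ordered by CPM per kilobase of exon, VC cells had PLIN3 first (74.6 ± 8.94), then PLIN2 (29.5 ± 0.907) and PNPLA2 (29.4 ± 4.21), which did not differ beyond their spread. DGAT1 (8.91 ± 1.36), HILPDA (4.13 ± 0.135), VLDLR (3.93 ± 0.160) and CPT1A (2.83 ± 0.504) followed, and the samples of HILPDA and VLDLR overlapped, though their means lay further apart than either SD. PLIN5 (0.0402 ± 0.0238) and PLIN4 (0.0109 ± 0.00405) came far behind, and G0S2 was at 0. In VHL-KO cells the order was PLIN2 (231 ± 5.18), PLIN3 (97.9 ± 0.900), PNPLA2 (52.8 ± 2.49), HILPDA (21.5 ± 0.960), DGAT1 (13.3 ± 0.774), VLDLR (3.96 ± 0.303) and CPT1A (1.04 ± 0.112), and the gaps between these 7 neighbours exceeded their SDs. PLIN5 (0.0201 ± 0.0107) and PLIN4 (0.00481 ± 0.00833) were again the lowest above 0, and their samples overlapped. Per kilobase of canonical transcript PLIN2 (78.0 ± 2.39) stood above PNPLA2 (46.6 ± 6.68) in VC and VLDLR (7.04 ± 0.287) above HILPDA (6.27 ± 0.204), and the first 7 of the VHL-KO order kept their places.

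**Figure D4:**
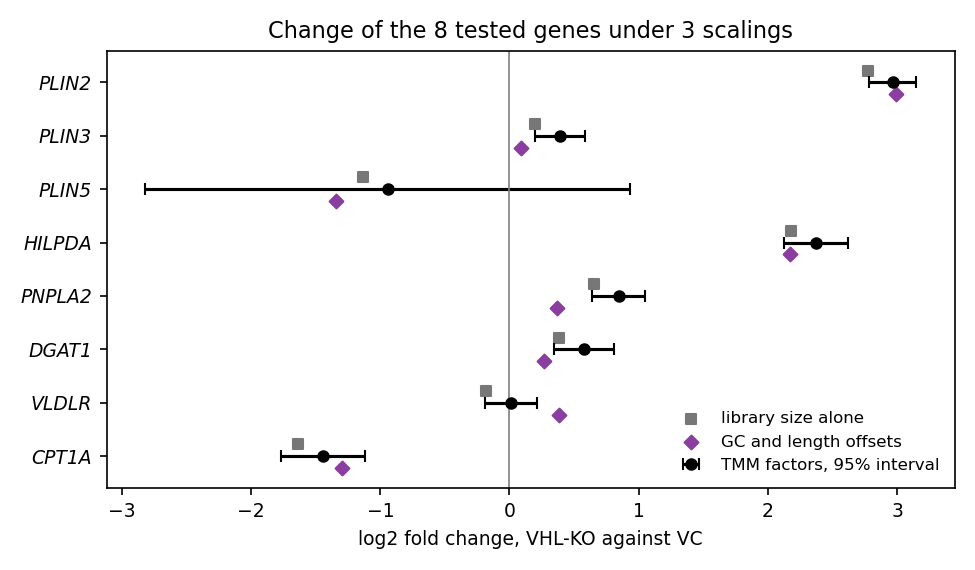
Log2 fold change of the 8 tested genes, VHL-KO against VC. Black points with 95% intervals use TMM factors, grey squares library size alone and purple diamonds GC and length offsets. PLIN2, HILPDA and CPT1A keep their size, PLIN3, PNPLA2 and DGAT1 move towards 0 with the offsets, VLDLR moves from 0.01 to 0.39, and the interval of PLIN5 spans 0.

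The neighbouring steps were read from lists of genes that leave the 10 out. The counts of each list stand beside 59.7% of all tested genes past the threshold, 28.5% higher and 31.2% lower, and its median beside -0.01, and nothing particular to a list is read from them. Of 17 genes of droplet coat and assembly, 12 were tested, of which 5 were higher, 4 lower and 3 not past the threshold, with a median log2 fold change of -0.03 beside -0.01 for all tested genes (-0.22 with library size alone, where 3 were higher and 5 lower, and 0.10 with GC and length offsets, where 6 were higher and 4 lower). LDAF1, a partner of seipin where droplets form, rose from 23.1 ± 1.53 to 43.9 ± 1.15 CPM (log2 0.92, SE 0.11, edgeR adjusted p = 8.02e-08). METTL7A, a droplet-associated methyltransferase, went from 0.711 ± 0.180 to 1.77 ± 0.827 CPM (log2 1.33, edgeR adjusted p = 0.0029), and without VHL-KO 1 its log2 fold change was 0.91 with an adjusted p of 0.0608, the highest of the alternatives, whose lowest was 0.000393. SPART, which takes part in droplet turnover, went from 65.9 ± 8.96 to 39.0 ± 5.31 CPM (log2 -0.76, edgeR adjusted p = 4.68e-06), and with GC and length offsets the value was -0.15 with an adjusted p of 0.116, the highest of the alternatives, whose lowest was 1.98e-12. RAB18, a small GTPase of the droplet surface named after its values were seen, went from 51.9 ± 8.25 to 37.7 ± 1.70 CPM (log2 -0.46, edgeR adjusted p = 0.00117), but with GC and length offsets its sign turned and it was past the threshold as higher (log2 0.18, adjusted p = 0.0343, within a range of 1.58e-05 to 0.0343). METTL7B, a relative of METTL7A also named after its values were seen, went from 8.52 ± 0.193 to 11.1 ± 0.666 CPM (log2 0.39, edgeR adjusted p = 0.0274). With the offsets it was 0.03 (adjusted p = 0.839), with library size alone 0.19 (0.267), with a filter of 1 read in any library 0.35 (0.0954), and without VC 1, VHL-KO 1 or VHL-KO 2 the adjusted p was 0.0778, 0.0913 and 0.0572, none past the threshold, within a range of 0.00515 to 0.846. PLIN1, the perilipin of adipocytes, was singled out after its values were seen. It had 0, 5 and 3 reads in VC and 4, 8 and 25 in VHL-KO, so VHL-KO 3 held most of its reads, and VC 2 lay above VHL-KO 1 in CPM (0.168 against 0.1497). The log2 fold change of 2.73 (SE 0.89, edgeR adjusted p = 0.0104) rests on VHL-KO 3, without which the gene had too few reads to be tested.

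Of 9 genes of lipolysis, 6 were tested, of which 1 was higher, 4 lower and 1 not past the threshold, with a median of -0.67 (-0.25 with GC and length offsets). MGLL, the monoacylglycerol lipase that takes the last fatty acid, rose from 228 ± 25.1 to 646 ± 16.1 CPM (2.83-fold, 95% interval 2.48 to 3.23, edgeR adjusted p = 1.23e-12), the same direction as PNPLA2, which acts first. DDHD2, a triacylglycerol hydrolase best known from neurons, fell from 25.03 ± 2.78 to 15.3 ± 0.642 CPM (log2 -0.71, edgeR adjusted p = 3e-05), and LIPA, the acid lipase of the lysosome, from 56.1 ± 7.82 to 34.3 ± 6.89 CPM (log2 -0.71, edgeR adjusted p = 3.89e-05). With GC and length offsets these were -0.24 and -0.27, still past the threshold. ABHD5, the activator of the PNPLA2 product, was singled out after its values were seen. It went from 11.2 ± 0.660 to 7.22 ± 0.800 CPM (log2 -0.64, edgeR adjusted p = 0.00105), but with GC and length offsets the value was -0.02 with an adjusted p of 0.906, within a range of 0.000145 to 0.906, which ends the call. The calls with library size alone, RLE factors and upper quartile factors were kept.

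Of 23 genes of triacylglycerol and sterol ester synthesis, 17 were tested, of which 5 were higher, 7 lower and 5 not past the threshold, with a median of -0.23. With library size alone 4 were higher and 10 lower (median -0.42), with GC and length offsets 4 were higher and 6 lower (median 0.03), and without VHL-KO 1 the median was -0.11. ACSL3, an acyl-CoA synthetase found on droplets, fell from 65.0 ± 7.44 to 21.7 ± 1.13 CPM (log2 -1.58, SE 0.11, edgeR adjusted p = 1.5e-11, and -0.97 with the offsets). GPAT3, which starts glycerolipid assembly, fell from 39.8 ± 5.10 to 13.4 ± 0.110 CPM (log2 -1.57, edgeR adjusted p = 8.83e-11). DGAT2, the other enzyme of the last step, rose from 4.27 ± 0.673 to 9.67 ± 0.711 CPM (log2 1.18, SE 0.17, edgeR adjusted p = 2.3e-06), so both acyltransferases of that step were higher in VHL-KO. Per kilobase of exon DGAT2 stood at 0.541 ± 0.0851 in VC and 1.22 ± 0.0899 in VHL-KO, below DGAT1 in both groups.

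Of 31 genes of lipid uptake and binding, 17 were tested, of which 8 were higher, 6 lower and 3 not past the threshold. Their median log2 fold change was 0.15 beside -0.01 for all tested genes, and it was -0.04 with library size alone, 0.40 with GC and length offsets and 0.43 without VC 3. ANGPTL4, a secreted inhibitor of lipoprotein lipase, rose from 19.8 ± 2.24 to 209 ± 12.5 CPM, 10.6-fold (95% interval 9.08 to 12.3, edgeR adjusted p = 4.51e-18). LMF1, which helps lipases fold, rose from 2.25 ± 0.336 to 12 ± 0.689 CPM (log2 2.41, edgeR adjusted p = 3.26e-11), and LRP1, a receptor of remnant lipoprotein, from 51.2 ± 7.60 to 209 ± 23.2 CPM (log2 2.03, edgeR adjusted p = 1.24e-13). With the offsets the log2 fold changes were 2.01 for LMF1 and 1.72 for LRP1. SCARB1, the receptor of high-density lipoprotein, was named after its values were seen and rose from 274 ± 32.5 to 819 ± 10.7 CPM (log2 1.58, edgeR adjusted p = 5.58e-13). VLDLR, left out of this list, had a log2 fold change below those of these 4 genes.

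Of 8 genes of the carnitine shuttle and its control, 7 were tested, of which 2 were higher, 1 lower and 4 not past the threshold, with a median of 0.06 (-0.13 with library size alone and -0.08 with the offsets). The log2 fold change of CPT1A, which is left out of this list, was lower than those of these 7. ACACB, whose product malonyl-CoA inhibits CPT1 enzymes, rose from 2.56 ± 0.349 to 10.2 ± 0.809 CPM (log2 1.99, edgeR adjusted p = 1.07e-09). CRAT, the carnitine acetyltransferase, rose from 77.3 ± 9.47 to 164 ± 1.57 CPM (log2 1.08, edgeR adjusted p = 9.98e-10), and SLC22A5, the carnitine importer, fell from 11.1 ± 0.929 to 6.77 ± 0.753 CPM (log2 -0.71, edgeR adjusted p = 0.000465). With the offsets the log2 fold changes were 0.72 for CRAT and -0.60 for SLC22A5.

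**Figure D5:**
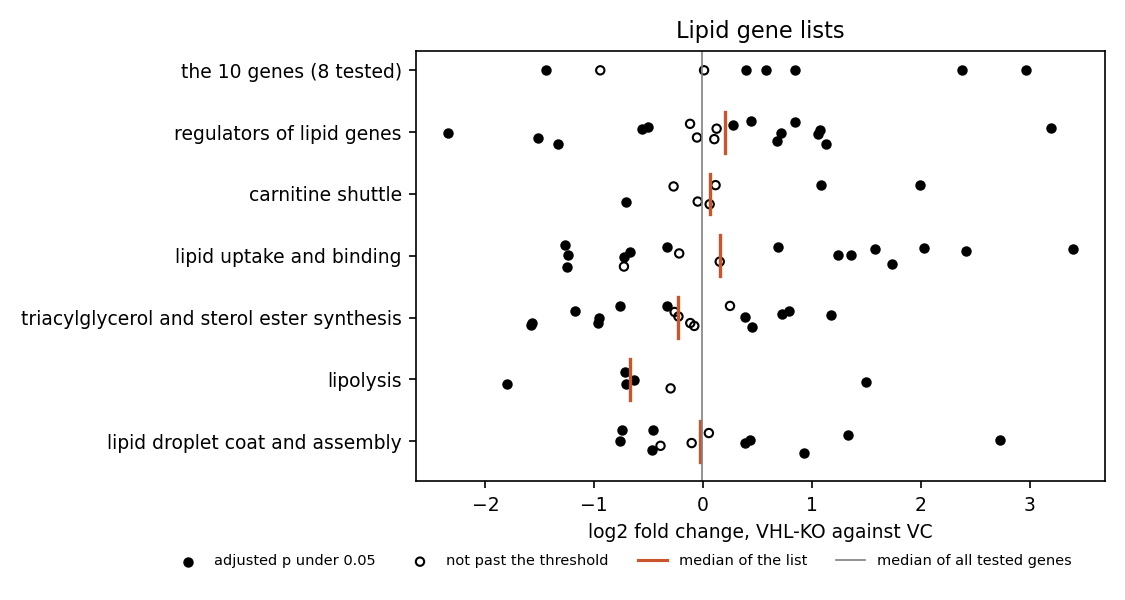
Log2 fold change of each tested gene, VHL-KO against VC, in 6 lists of lipid genes and, on the top line, for the 8 tested genes of the 10; filled points passed an adjusted p of 0.05, orange bars are list medians and the grey line is the median of all tested genes. Genes on both sides of 0 occur in every list, and PLIN2 and HILPDA lie at the far right of the top line.

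The cells carried renal epithelial markers. Of 7 such genes 6 were tested, 5 higher and 1 (EPCAM) lower in VHL-KO, PAX2 was at 0, KRT8 was the most abundant (mean 811 CPM), and the summed level was 1497, 1701 and 1348 CPM in VC 1, 2 and 3 and 2213, 2143 and 2148 CPM in VHL-KO 1, 2 and 3. PAX8 and KRT18 were high in both groups, and KRT19 averaged below 1 CPM in both. CDH16, the kidney-specific cadherin, was singled out after its values were seen and rose from a mean of 6.76 to 72.2 CPM (log2 3.42, edgeR adjusted p = 6.92e-17), a larger log2 rise than that of any of the 10 genes. Of 7 adipocyte markers, ADIPOQ, LEP and CIDEA were at 0, and the sum, with PLIN1, CIDEC, FABP4 and LIPE, was 0.264, 0.236 and 0.211 CPM in VC and 0.786, 0.788 and 1.45 CPM in VHL-KO. The means of PLIN1, FABP4 and LIPE were higher in VHL-KO (0.564, 0.165 and 0.230 CPM against 0.0824, 0.0449 and 0.0703 CPM), and of these PLIN1 had enough reads to be tested. PLIN1 had the highest mean of the 7 over all samples, with 1.17 CPM in VHL-KO 3, but in VC 1, VC 3 and VHL-KO 1 others of them were higher. Of 5 hepatocyte markers, APOA2, TTR and APOC3 were at 0, ALB was near it, and SERPINA1 made up most of sums of 52.8, 58.2 and 50.4 CPM in VC and 22.9, 21.0 and 22.7 CPM in VHL-KO. Of 6 fibroblast markers, COL3A1 and LUM were at 0, COL1A2 and DCN were near it, and COL1A1 and PDGFRB were lower in VHL-KO, with sums of 43.3, 47.3 and 37.2 CPM against 29.8, 27.2 and 25.5 CPM. Of 6 leukocyte markers, CD3E was at 0, PTPRC, CD68 and AIF1 were near it, and CD14 led sums of 1.73, 1.72 and 1.34 CPM against 4.38, 5.42 and 3.99 CPM. The part of these differences in the results for the 10 genes was not tested.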

How the data were processed

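Total RNA of the 6 Caki-1 samples was sequenced on an Illumina NovaSeq. The authors trimmed reads with Trim Galore and Cutadapt (at least 20 nt kept), aligned them with STAR to GRCh38.p13, kept reads with a single genomic location with SAMtools and counted them per gene with HTSeq, and the deposited values are raw counts. Tool versions, annotation release, strand setting and counting mode are not given in the sources used here. Dropping reads with several locations lowers genes with repeats or close copies, and PLIN4 counts are uncertain for that reason.

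Genes with at least 10 reads in any library (17401 of 60708) were tested with edgeR 4.0.16 in R 4.3.3 (TMM factors, quasi-likelihood F test, group as the single term, Benjamini-Hochberg adjustment over all tested genes, threshold 0.05), after a test on simulated data. SE is the log2 fold change over the root of F. Levels are TMM-normalized CPM, per kilobase of exon from GENCODE release 44 where genes are compared. Coordinates are from GENCODE, promoter windows from RefSeq. Ratios and shares were compared by two-sided exact permutation over 20 arrangements. A count of 0 was given a limit of 3 counts. Replicate libraries differed beyond counting noise (chi-square per degree of freedom 6.43 to 35.3), so none was merged with another, which does not show that they were separate cultures. The 15 alternatives were RLE and upper quartile factors, library size alone, 2 other filters, each replicate left out, a replicate block, per-library spline offsets for GC content and length, both together, and DESeq2 1.42.0.

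The 10 genes and the lists were chosen with earlier results of these data known. From each list the text names the 3 genes past the threshold that changed most on the log2 scale at a mean of at least 1 CPM, and any other is said to be chosen after its values were seen. Protein comparisons, 1 of the ratios and some genes counted in the lists are not reported here.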

Additional observations from a re-analysis of the deposited data

How the results depend on the processing

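Log2 fold changes of 39 genes were recomputed under the 15 alternatives. Of the values, 554 kept their direction and their side of the threshold, 19 lost the threshold, 2 passed it and 6 changed sign. Of these, 2 were of RAB18, at 0.18 with GC and length offsets with and without the block, and 4 were of VLDLR, which was -0.18 with library size alone, -0.029 with a filter of 1 read in any library, and between -0.047 and 0.061 with single samples left out. The cause was not tested. The 2 that passed were also of VLDLR, with GC and length offsets. The losses were of VHL, PLIN3, SPART, ABHD5, METTL7A and METTL7B, with the adjusted p-values given beside each gene, and VHL lost its call with upper quartile factors (adjusted p 0.0905), without VC 1 (0.0862) and without VHL-KO 2 (0.0621). The number of the 10 genes past the threshold was 6 in every alternative, but with the offsets PLIN3 left and VLDLR entered. Genes past the threshold ranged from 9215 with at least 10 reads in every library to 10501 with library size alone. Samples of the 2 groups share replicate numbers 1 to 3, but deviations of same-numbered samples correlated at 0.0627, -0.000449 and 0.0283 over 17401 genes, and not every sample correlated best with its own number, so they share a number and no pairing. With the replicate block 10284 genes passed, 6 of the 10 genes among them. PLIN5 and PLIN1 could not be tested in settings that remove the library through which they entered. The ratio of G0S2 to PNPLA2 had no value in any setting. Depth limits PLIN4, PLIN5 and G0S2, for which differences below their counting intervals or limits could not be detected.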

Other observations

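Of 20 regulators of lipid genes, 18 were tested, of which 9 were higher, 5 lower and 4 not past the threshold in VHL-KO, with a median log2 fold change of 0.20 (0.01 with library size alone) beside -0.01 for all tested genes. HIF3A, a HIF-alpha gene whose shorter products can inhibit the others, rose from 0.772 ± 0.320 to 6.97 ± 0.0990 CPM (log2 3.20, SE 0.25, edgeR adjusted p = 9.18e-11). HIF1A fell from 65.7 ± 14.1 to 12.9 ± 1.55 CPM (log2 -2.35, SE 0.14, edgeR adjusted p = 6.42e-13, and -1.75 with GC and length offsets). EPAS1, which encodes HIF-2-alpha, was named after its values were seen and fell from 182 ± 13.5 to 123 ± 3.23 CPM (log2 -0.56, edgeR adjusted p = 8.36e-06). The falls of HIF1A and EPAS1 are of mRNA, and by immunoblot the authors reported that the proteins of both genes accumulated in VHL-KO Caki-1 cells. PPARGC1B, a coactivator of genes of fatty acid oxidation, fell from 7.80 ± 0.842 to 2.74 ± 0.511 CPM (log2 -1.51, edgeR adjusted p = 3.21e-07). Its paralogue PPARGC1A, a coactivator of many of the same genes, was named after its values were seen and rose from 1.97 ± 0.132 to 4.33 ± 1.19 CPM (log2 1.13, edgeR adjusted p = 0.00015).

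Of the 3 PPAR genes, receptors for fatty acid ligands that were named after their values were seen, 2 fell and 1 rose. PPARG, the adipogenic one, fell from 30.7 ± 1.34 to 12.2 ± 1.87 CPM (log2 -1.33, edgeR adjusted p = 4.27e-09). PPARD, present in most tissues, fell from 42.3 ± 2.55 to 29.8 ± 0.992 CPM (log2 -0.51, edgeR adjusted p = 0.000237). PPARA, which is known to act on CPT1A and PLIN2 in liver, rose from 8.45 ± 0.504 to 13.6 ± 0.856 CPM (log2 0.68, edgeR adjusted p = 0.000263). The 15 alternatives kept these 3 directions and calls.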
